A study of Mus musculus with 18 samples.

Results

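Bone marrow derived macrophages of the mouse were compared after 2 h and after 1 h of 100 nM dexamethasone, a synthetic glucocorticoid. The comparison takes the 3 arrays whose titles give 2 h against the 3 whose titles give 1 h, 6 of the 18 arrays of the series, so it describes what happened in the second hour of treatment. The series is a time course of baseline, 1, 2, 4, 10 and 24 h, with 3 arrays at each point, and the baseline cells carry no dexamethasone treatment in the labels. It holds no untreated arrays at 1 h or 2 h. An effect of dexamethasone and an effect of the time since the cells were handled therefore cannot be told apart. The cells of every group, the 2 h and 1 h groups included, were grown from the marrow of 3 male C57BL/6 mice aged 10 weeks for 1 week. The medium held 10% serum and 10000 U/ml of CSF1, the human recombinant protein, and the cells were then replated for the time course. They carry no mutation or transgene by the labels, and a macrophage cultured in CSF1 lacks the other cells of a tissue. The series' design text calls the replicates biological, and the labels do not say whether a replicate number stands for a mouse, so the p-values measure the spread between these arrays.

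Dexamethasone enters the cell and binds the glucocorticoid receptor, the product of Nr3c1, which chaperones hold in the cytoplasm. The receptor with its ligand moves to the nucleus, where it binds DNA at response elements and raises the transcription of some genes, while it lowers that of many inflammatory genes driven by factors such as NF-kappaB and AP-1. In macrophages glucocorticoids are known for lowering cytokines and chemokines and for raising the uptake of dying cells.

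Levels are log2 of the deposited array intensity, so a difference of 1 is a doubling, and each gene is read from the brightest of its probe sets. A gene was called if its adjusted p in limma was under 0.05, and rose and fell are used of called genes. Of 13210 genes tested, 148 were called, which is 1.12%. More of them rose than fell, 116 (0.878%) against 32 (0.242%), although after each array was centred on its median the calls were 68 higher and 44 lower, a share of 60.7% higher in place of 78.4%. That centring lowered the change of all genes by 0.06. With the replicate number as a block there were 219 calls, 165 higher and 54 lower. Without 1 h replicate 3 there were 90 calls, 68 of them higher. The called rises had a median log2 change of 0.51 and the called falls one of -0.46, against a median of 0.01 over all genes tested. The smallest called changes were 0.21 and -0.24, and 17 calls were 1 or more in size, 15 rises and 2 falls. The 3 arrays at 2 h lay wholly to one side of the 3 at 1 h for all 148 called genes, as they did for 13.1% of all genes tested (8.19% with the 2 h arrays above and 4.87% with them below).

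The labelled cell type was borne out by its markers. All 13 macrophage markers with a level, among them Csf1r, Adgre1 and Cd68, were above the background level of 3.87, below which 95% of nonspecific control probe sets lie on an average array. Their summed intensity was 35471 to 36413 at 2 h and 34833 to 35580 at 1 h, and 1 of the 13, Mertk, rose. Markers of neutrophils (7 of 9 above background), dendritic cells (3 of 6), B cells (1 of 6), T and NK cells (1 of 8), erythroid cells and megakaryocytes (3 of 7), stromal and endothelial cells (2 of 9) and mast cells and basophils (1 of 6) held no called gene in either direction. Their summed intensities overlapped between 2 h and 1 h for 6 of these 7 lists, and for mast cells and basophils they were 116 to 125 at 2 h and 110 to 115 at 1 h, with 1 of 6 markers above background. Among the markers below background were Cd3d, Cd79a, Flt3, Col1a1, Cpa3, the erythroid genes Hba-a1 and Alas2 and, of the neutrophil list, Elane and Cxcr2 alone. The summed intensity of the neutrophil list was 936 to 990 at 2 h and 954 to 1008 at 1 h, that of the erythroid and megakaryocyte list 3031 to 3329 at 2 h and 3206 to 3484 at 1 h, and their part in the results was not tested. In bulk RNA of this kind fewer cells of a type and less RNA per cell cannot be told apart. The replicates correlated at 0.996 to 0.997 at 2 h and at 0.997 at 1 h (Pearson's r over the genes tested). The excess of 3' over 5' signal for Gapdh, a sign of RNA degradation, was 0.15 ± 0.08 at 2 h and 0.17 ± 0.02 at 1 h (log2, SD, n = 3 each), and that for Actb was 0.43 ± 0.02 at 2 h and 0.40 ± 0.03 at 1 h. Exact two-sided permutation tests gave p = 0.9 and p = 0.3, where 3 arrays against 3 cannot go below 0.1.

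**Figure D1:**
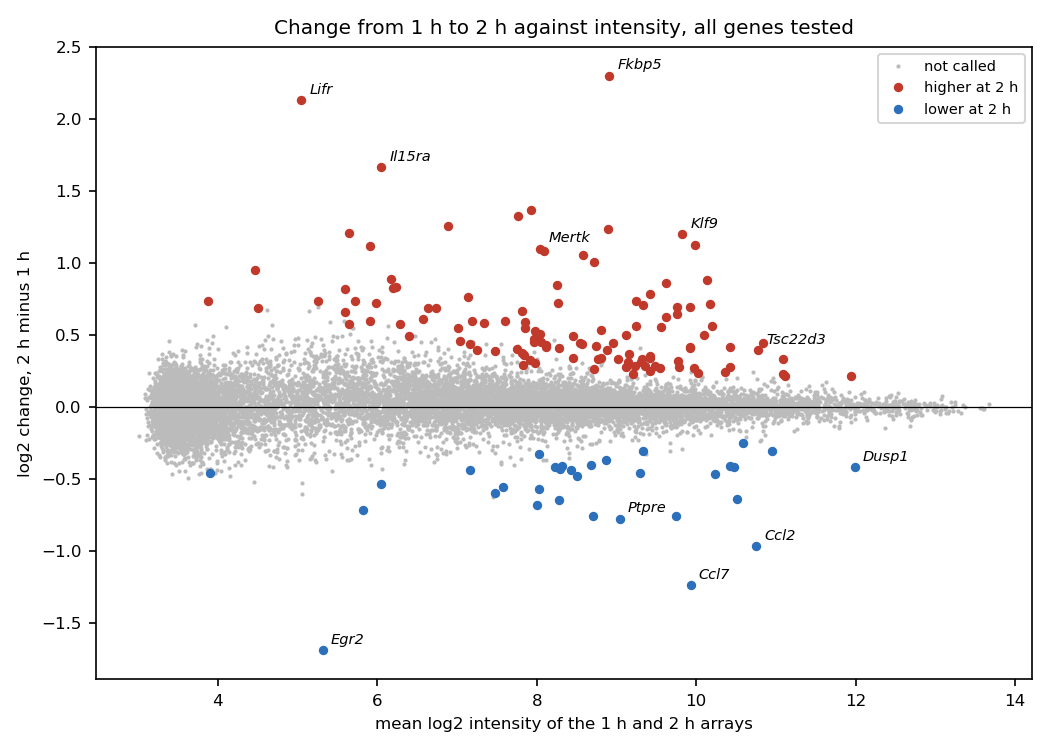
Log2 change from 1 h to 2 h (vertical axis, 2 h minus 1 h) against the mean log2 intensity of the 6 arrays (horizontal axis) for all 13210 genes tested, with the 116 genes higher at 2 h in red and the 32 lower in blue. Fkbp5 and Lifr stand at the top with changes of 2.30 and 2.13, and Egr2 and Ccl7 at the bottom with -1.69 and -1.24.

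The receptor gene itself did not pass the test, while the gene of one of its brakes had the largest rise of all. Nr3c1 was at 8.29, 8.34 and 8.27 on the 2 h arrays and at 8.26, 8.38 and 8.51 on the 1 h arrays, so the groups overlapped (log2 change -0.09 ± 0.08 SE, adjusted p = 0.973). Fkbp5, which encodes a cochaperone that binds the receptor complex and lowers its affinity for hormone, was at 10.11, 9.99 and 10.08 at 2 h and at 7.89, 7.56 and 7.82 at 1 h. Every 2 h array lay far above every 1 h array. Its log2 change was 2.30 ± 0.07 SE, a 4.93-fold level at 2 h (adjusted p = 4.11e-17), and its other probe set above background gave 2.16. Fkbp5 was the 1 called gene among 18 tested genes for the receptor, its chaperones and its coregulators. That is 5.56% called against 1.12% of all genes, and the median change of the list was 0.01. The 250 bases before the Fkbp5 start, which RefSeq's promoter table places at chr17:28486150-28486399 on the minus strand (GRCm38.p6), are printed because this gene rose the most.
Fkbp5: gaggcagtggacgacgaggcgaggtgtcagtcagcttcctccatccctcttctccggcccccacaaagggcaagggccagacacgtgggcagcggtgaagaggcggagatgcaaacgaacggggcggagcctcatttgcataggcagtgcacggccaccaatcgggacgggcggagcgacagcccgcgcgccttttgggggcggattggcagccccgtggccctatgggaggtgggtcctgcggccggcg
This stretch is printed in lower case throughout because none of the motifs searched was found in it. They were the full glucocorticoid response element (AGAACA and its reverse complement, 3 bases apart), a looser palindrome (GNACA and its reverse complement, 3 bases apart), the element's single arm AGAACA, the AP-1 site TGANTCA, the cAMP response element TGACGTCA, the CArG box and the NF-kappaB site, on both strands, and the AGAACA arm lies within the full element. No match says only that these letters are not in this window.

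Among the other known receptor targets, the rises went to genes with unlike jobs. Lifr, which encodes a receptor subunit for leukaemia inhibitory factor, was at 6.22, 5.79 and 6.32 at 2 h and at 3.83, 4.11 and 4.00 at 1 h, where 1 of the 3 arrays was below background. The groups did not overlap, and the log2 change was 2.13 ± 0.17 SE (4.38-fold, adjusted p = 6.88e-09). This size holds for the brightest probe set alone, since the other 2 probe sets of Lifr gave changes of 0.12 and 0.27, and the mean of its probe sets gave 0.84. The Lifr start has 2 windows in the RefSeq table, of which the one at chr15:7129322-7129571 on the plus strand (GRCm38.p6) is printed for the second largest rise.
Lifr: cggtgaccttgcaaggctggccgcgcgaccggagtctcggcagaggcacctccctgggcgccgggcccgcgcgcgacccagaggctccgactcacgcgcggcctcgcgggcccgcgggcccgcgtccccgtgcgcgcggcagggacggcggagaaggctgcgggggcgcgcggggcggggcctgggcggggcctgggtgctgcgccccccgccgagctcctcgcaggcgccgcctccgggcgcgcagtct
None of the motifs listed above was found in it either, so all of it is in lower case.

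Ddit4, also called REDD1, encodes an inhibitor of the growth kinase mTORC1. It was at 8.42, 8.34 and 8.52 at 2 h and at 7.28, 6.88 and 7.15 at 1 h, and every 2 h array was the higher (1.33 ± 0.19 SE, adjusted p = 8.93e-05). Klf9, a zinc finger transcription factor, was at 10.48, 10.33 and 10.47 at 2 h and at 9.24, 9.20 and 9.21 at 1 h, again with no overlap (1.20 ± 0.07 SE, adjusted p = 9.17e-12), and its 3 other probe sets above background gave 0.77 to 1.07. Mertk, a receptor tyrosine kinase through which macrophages take up apoptotic cells, was at 8.71, 8.59 and 8.49 at 2 h and at 7.44, 7.62 and 7.43 at 1 h. It rose by 1.10 ± 0.09 SE, a 2.15-fold level at 2 h with no overlap (adjusted p = 1.33e-08). It was the 1 called gene among 20 tested genes for the uptake of apoptotic cells (5% against 1.12% of all genes). The median change of that list was 0.03.

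Further receptor targets had small rises or fell in this hour. Per1, a repressor in the circadian clock, was at 8.78, 8.88 and 8.72 at 2 h and at 8.44, 8.41 and 8.20 at 1 h (0.44 ± 0.10 SE, adjusted p = 0.0159). Tsc22d3, which encodes the anti-inflammatory protein GILZ, was at 11.01, 11.03 and 10.90 at 2 h and at 10.69, 10.53 and 10.53 at 1 h (0.40 ± 0.06 SE, adjusted p = 0.000174), with 0.18 and 0.26 on its 2 other probe sets. Both kept every 2 h array above every 1 h array. Dusp1, a phosphatase that switches off p38 and JNK, was instead lower, at 11.84, 11.72 and 11.79 at 2 h and at 12.18, 12.17 and 12.24 at 1 h (-0.42 ± 0.09 SE, adjusted p = 0.0181). Counted together, 8 of 28 tested receptor targets rose (with Cebpb, 0.23) and 2 fell (Dusp1, and Rgs2 at -0.41), which is 35.7% called against 1.12% of all genes, and the median of the list was 0.11 against 0.01 for all genes. The list was drawn up with earlier results of these data known, so its count is no independent evidence of a direction.

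Rises were not limited to listed targets, and 116 of the 148 called genes were in none of the lists. The lists held 494 of the 13210 genes tested, so most genes tested were in none of them either. Il15ra, the high-affinity receptor chain for interleukin 15, was at 6.84, 6.92 and 6.89 at 2 h and at 5.29, 5.10 and 5.25 at 1 h. No array overlapped, the change was 1.67 ± 0.18 SE (3.18-fold, adjusted p = 1.28e-06), and a dimmer probe set gave 0.99. With Lifr it made up the 2 rises among 27 tested cytokine receptors (7.41% called against 1.12% of all genes). None of that list fell and its median was -0.02. Rnf169, which encodes a ubiquitin-binding protein recruited to DNA breaks, was at 8.57, 8.67 and 8.61 at 2 h and at 7.27, 7.25 and 7.22 at 1 h (1.37 ± 0.07 SE, 2.58-fold, adjusted p = 4.01e-12). Its arrays agreed within each time to a small part of the gap between the times, and a dimmer probe set gave 1.22.

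The other 8 of the 15 largest rises had unlike functions. Sla, a Src-like adaptor that damps receptor signalling, was at 10.56, 10.46 and 10.61 at 2 h and at 9.42, 9.43 and 9.40 at 1 h (1.13 ± 0.06 SE, adjusted p = 9.17e-12). Gab3, a docking protein for signals of the CSF1 receptor, was at 8.67, 8.64 and 8.57 at 2 h and at 7.50, 7.71 and 7.42 at 1 h (1.08 ± 0.09 SE, adjusted p = 3.48e-08). Ssh2, a slingshot phosphatase that activates the actin-severing protein cofilin, was at 9.52, 9.50 and 9.54 at 2 h and at 8.25, 8.31 and 8.28 at 1 h (1.24 ± 0.09 SE, adjusted p = 1.16e-09). In all 3 genes the spread within a time was small beside the step. Cytip, which binds cytohesin at the membrane, averaged 9.22 ± 0.17 at 2 h and 8.21 ± 0.09 at 1 h (SD, n = 3 each), a change of 1.01 against 0.44 on its other probe set. Rab15, a small GTPase of endosomes, averaged 6.46 ± 0.21 at 2 h and 5.34 ± 0.32 at 1 h. Klhl6, a Kelch-like substrate adaptor of a ubiquitin ligase, averaged 9.11 ± 0.09 at 2 h and 8.06 ± 0.18 at 1 h. B3gnt5, a glycosyltransferase of glycolipid synthesis, and Abhd15, an alpha/beta hydrolase fold protein, completed the 15 largest rises with changes of 1.21 ± 0.22 and 1.26 ± 0.15 SE. All 15 largest rises kept their calls under each of the 29 alternative settings tried. The mean of all probe sets gave smaller changes of 0.72 for Abhd15 and 0.70 for B3gnt5, and log2 of the intensity plus 32 gave 0.72 for Rab15.

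**Figure D2:**
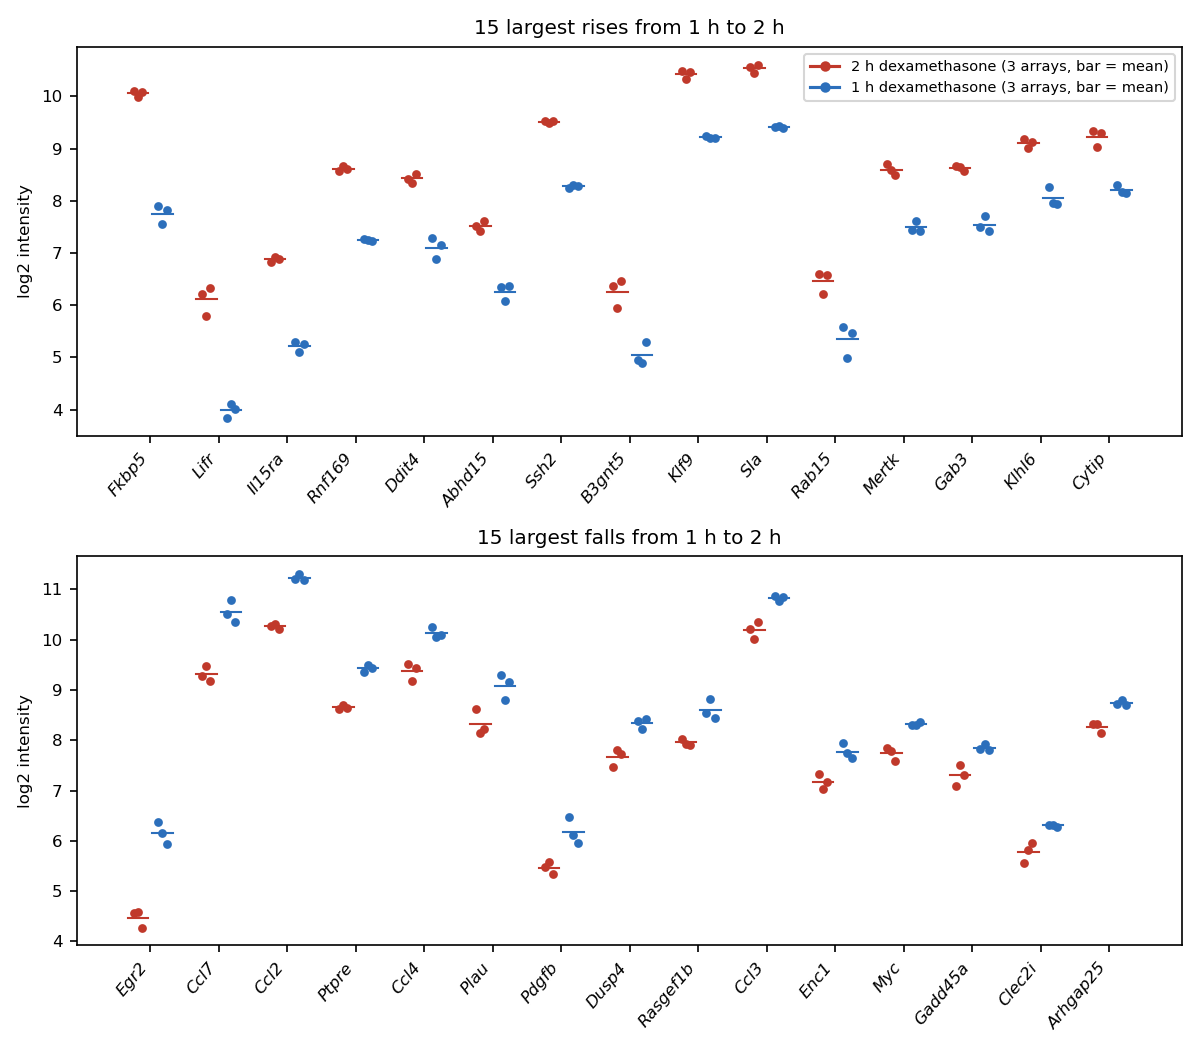
Log2 intensity (vertical axis) on each array for the 15 largest rises (top) and the 15 largest falls (bottom), with the 3 arrays at 2 h in red left of the 3 arrays at 1 h in blue and bars at the means. Only called genes without overlap between the times were eligible, so the 2 colours overlap in no gene shown. The widest gaps belong to Fkbp5 (10.06 and 7.76), Lifr (6.11 and 3.98) and, downward, Egr2 (4.47 and 6.16).

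Transcription factors of the KLF and C/EBP families held 4 rises. Of 15 tested none fell, so 26.7% were called against 1.12% of all genes, and their median was 0.13 against 0.01. Klf9 and Cebpb were also counted among the receptor targets. This list too was drawn up with earlier results of these data known, so its count is no independent evidence. Klf4, a factor of monocyte and macrophage differentiation, was at 10.45, 10.56 and 10.72 at 2 h and at 9.63, 9.71 and 9.73 at 1 h (0.89 ± 0.09 SE, adjusted p = 9.24e-07), and its dimmer probe set gave 0.88. Klf13 rose by 0.50 ± 0.07 SE, and Cebpb, a factor of inflammatory and myeloid genes, by 0.23 ± 0.05 SE, which is 1.18-fold. The call of Klf13 was lost with the mean of its probe sets (change 0.31, adjusted p = 0.138). The call of Cebpb was lost under 7 of 29 settings, among them median centring (adjusted p = 0.373) and leaving out 1 h replicate 1 (0.0557), 1 h replicate 3 (0.107) or 2 h replicate 3 (0.0893).

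The largest fall belonged to an immediate-early factor. Egr2, a zinc finger transcription factor induced by growth factors, was at 4.56, 4.59 and 4.27 at 2 h and at 6.37, 6.16 and 5.95 at 1 h, with every 2 h array far below every 1 h array. Its log2 change was -1.69 ± 0.19 SE (adjusted p = 3.36e-06), the 1 h level was 3.22 times the 2 h level, and its dimmer probe set gave -1.40. With its 2 h mean of 4.47 near the background of 3.87, the size depends on the scale, and log2 of the intensity plus 32 gave -0.93. The RefSeq table holds 5 windows for Egr2. The one at chr10:67537316-67537565 on the plus strand (GRCm38.p6) is printed for the largest fall, and it holds a CArG box, the binding motif of serum response factor, whose letters are in capitals and begin 72 bases before the start.
Egr2: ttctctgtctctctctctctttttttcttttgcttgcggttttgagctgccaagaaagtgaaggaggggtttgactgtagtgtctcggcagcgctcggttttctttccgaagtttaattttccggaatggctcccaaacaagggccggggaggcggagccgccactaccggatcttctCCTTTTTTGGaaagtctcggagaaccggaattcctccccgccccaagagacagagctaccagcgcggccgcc
A CArG box was present in the promoter windows of 1.58% of the 10633 tested genes that have an entry. The shares were 2.06% of 97 genes higher at 2 h and 4.55% of 22 genes lower at 2 h, where the last share is 1 gene. The full response element was in 0.0188% of the tested genes and in none of these 97 and 22 called genes. The looser palindrome was in 0.433% of tested genes and 1.03% of the higher genes, which is 1 gene. The single arm AGAACA was in 16.5% of the higher genes, 4.55% of the lower genes (1 gene) and 15.7% of all tested genes. AP-1 sites were in 11.3% of the higher genes, 9.09% of the lower genes (2 genes) and 6.84% of all tested genes. For the cAMP response element these shares were 3.09%, 9.09% (2 genes) and 3.31%. For the NF-kappaB site they were 7.22%, 4.55% (1 gene) and 9.70%. Differences between the shares were not tested. Counted per window, since some genes have several, AGAACA was in 12.4% of 137 windows of higher genes and 13.3% of 13518 windows of tested genes. AP-1 sites were in 8.03% and 5.73% of the same windows. The CArG box was in 4 of 34 windows of lower genes, all of 1 gene, and in 1.33% of windows of tested genes. In the window examined for each of Il15ra, Rnf169 and Ptpre none of the motifs was found. The windows reach from 250 bases before to 50 bases after each start and leave out anything farther away.

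Myc and Atf3 were the other immediate-early factors that fell. Myc, a driver of growth, was at 7.85, 7.79 and 7.60 at 2 h and at 8.30, 8.29 and 8.36 at 1 h (-0.57 ± 0.10 SE, adjusted p = 0.00247). Atf3, a stress-induced repressor, was at 10.05, 9.99 and 9.99 at 2 h and at 10.58, 10.45 and 10.38 at 1 h (-0.46 ± 0.11 SE, adjusted p = 0.0329). Neither gene's groups overlapped. Of 23 tested members of this class 3 fell and none rose, where 0.242% of all genes tested fell and 0.878% rose. Falls were thus more frequent in this list than among all genes. The median of the list was 0.00 against 0.01 for all genes, so most members did not share the falls. This list, like the others, was drawn up with earlier results of these data known. Atf3 lost its call under 10 of 29 settings, among them the omission of any single 2 h or 1 h array.

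Chemokines formed the largest called group of falls among the lists. Of 20 tested, 4 fell and none rose, which is 20% called against 1.12% of all genes, and the median of the list was -0.08. The chemokine list was likewise drawn up with earlier results of these data known. Ccl7, a monocyte attractant acting on CCR2 and other receptors, was at 9.27, 9.48 and 9.18 at 2 h and at 10.51, 10.79 and 10.34 at 1 h (-1.24 ± 0.19 SE, adjusted p = 0.000256, 2.35 times higher at 1 h). Ccl2, the main CCR2 ligand, was at 10.27, 10.32 and 10.21 at 2 h and at 11.20, 11.30 and 11.18 at 1 h (-0.96 ± 0.10 SE, adjusted p = 6.19e-07). The arrays of each time lay close together and the times far apart. Ccl4, an inflammatory CC chemokine, was at 9.52, 9.17 and 9.43 at 2 h and at 10.24, 10.04 and 10.10 at 1 h (-0.76 ± 0.12 SE, adjusted p = 0.000786). Ccl3, a CC chemokine that attracts leukocytes, was at 10.21, 10.02 and 10.36 at 2 h and at 10.87, 10.77 and 10.85 at 1 h (-0.63 ± 0.12 SE, adjusted p = 0.00349), a call lost without the intensity trend (0.0657) and with the robust fit (0.108). Ccl5, a further CC chemokine, had a change of 0.29 and did not pass. Among 17 tested cytokines 1 fell (5.88% called against 1.12% of all genes). It was Pdgfb, a growth factor subunit, at 5.48, 5.57 and 5.34 at 2 h and at 6.47, 6.11 and 5.95 at 1 h (-0.71 ± 0.18 SE, adjusted p = 0.0485).

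The other large falls had unlike functions. Ptpre, a tyrosine phosphatase, was at 8.62, 8.70 and 8.65 at 2 h and at 9.36, 9.49 and 9.43 at 1 h (-0.77 ± 0.07 SE, adjusted p = 5.48e-08). Dusp4, which dephosphorylates ERK, was at 7.47, 7.80 and 7.72 at 2 h and at 8.38, 8.22 and 8.42 at 1 h (-0.68 ± 0.10 SE, adjusted p = 0.000239). The times did not overlap in either gene. Dusp4 and Dusp1 made up the 2 falls among 22 tested genes of ERK feedback and output (9.09% called against 1.12% of all genes). None of that list rose and its median was -0.06. Plau, the secreted protease urokinase, fell by 0.75 and averaged 8.33 ± 0.26 at 2 h and 9.08 ± 0.25 at 1 h (SD, n = 3 each). Its groups did not overlap (adjusted p = 0.00121), and it was the 1 call among 19 inflammatory and eicosanoid enzymes (5.26% against 1.12% of all genes). Rasgef1b, an exchange factor for Ras-family GTPases, fell by 0.65 ± 0.10 SE, Arhgap25, an inhibitor of Rac, by 0.48 ± 0.07 SE, Enc1, an actin-binding Kelch protein, by 0.60 ± 0.12 SE, Gadd45a, a growth arrest protein, by 0.55 ± 0.11 SE and the C-type lectin gene Clec2i by 0.53 ± 0.13 SE.

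Of the 15 largest falls, 9 kept their calls under all 29 settings. Pdgfb and Clec2i were the least secure, with calls lost under 17 and 16 settings, 13 of them in each case the omission of a single array. Enc1 lost its call with the mean of its probe sets (change -0.32, adjusted p = 0.518), without 1 h replicate 1 (0.0574) and, narrowly, without 2 h replicate 2, Gadd45a without 2 h replicate 1 (0.106) or 1 h replicate 2 (0.0617), and Arhgap25 with the probe set of largest variance (0.378). Per1 lost its call without 2 h replicate 1 (0.0595), 2 h replicate 2 (0.117) or 1 h replicate 3 (0.168). Dusp1 lost its call without any 1 of the 3 arrays at 1 h, without 2 h replicate 2 or 3, and under 3 further settings, with adjusted p up to 0.189.

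Receptors and signalling genes of inflammation held 1 or 2 called genes per list, where 1.12% of all genes tested were called. So few calls say little about a list as a whole. The prostaglandin E2 receptor Ptger2 rose by 0.51 ± 0.12 SE and averaged 8.29 ± 0.18 at 2 h and 7.78 ± 0.09 at 1 h, while Ptger4, a receptor for the same ligand, fell by 0.43 ± 0.08 SE and averaged 8.08 ± 0.02 at 2 h and 8.51 ± 0.05 at 1 h. These were the 2 calls among 19 chemoattractant and purine receptors. Ptger2 is near the threshold, with its call lost under 11 of 29 settings, including the omission of 2 h replicate 1 or 2 or any 1 h array, and Ptger4, at -0.40 on its dimmer probe set, lost its call with the probe set of largest variance (0.732) or the mean of its probe sets (0.0703). Tlr7, the endosomal sensor of single-stranded RNA, rose by 0.56 ± 0.07 SE (adjusted p = 7.07e-06), with its 2 other probe sets at 0.46 and 0.68, and was the 1 call among 19 Toll-like receptor genes. Birc3, an inhibitor of apoptosis that acts in NF-kappaB signalling, rose by 0.34 ± 0.07 SE as the 1 call among 19 genes of that pathway, with 0.15 on its other probe set. It lost its call with the mean of its probe sets (0.404), after median centring (0.0678) and without 1 h replicate 3 (0.0541). Nfkbiz and Nfkbia, also of the NF-kappaB list, had changes of -0.62 and -0.24 with adjusted p of 0.0526 and 0.072 and did not pass.

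Other lists held 1 or 2 called genes each, again beside 1.12% called of all genes tested. Pik3r1, the regulatory subunit of PI3 kinase, rose by 0.50 ± 0.05 SE (adjusted p = 6.17e-07) and with Ddit4 made up 2 rises among 24 genes of mTOR, FoxO and insulin signalling. Bcl2l1, an inhibitor of apoptosis, rose by 0.34 ± 0.07 SE as the 1 call among 15 BCL2 family genes. That call was lost under 7 settings, among them the omission of 2 h replicate 1 (0.171), 1 h replicate 2 (0.135) or 1 h replicate 3 (0.165). Among 16 mRNA decay factors Zc3h12d fell by 0.42 ± 0.07 SE and Zfp36l2 rose by 0.21 ± 0.05 SE. The call of Zfp36l2 was lost under 19 of 29 settings, 12 of them the omission of a single array. Rgs2, which speeds the shut-off of G protein signals, was the 1 call among 16 genes of that class and of cAMP. It averaged 10.27 ± 0.08 at 2 h and 10.68 ± 0.05 at 1 h, and its call was lost under 3 of 29 settings (adjusted p up to 0.0829).

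A further 8 lists held no called gene. With 1.12% of all genes tested called, no call among 10 to 29 genes does not set a list apart. They were the SOCS brakes (10 tested), interferon-stimulated genes (27), lipid handling (16), cholesterol synthesis (16), the TGF-beta, BMP and Notch response (15), metallothioneins and zinc transport (10), the cell cycle (29) and glycolysis and the hypoxia response (17). The interferon-stimulated genes had a median change of 0.17, the highest among the 28 lists, and their brightest member, Trim30a, was at 10.08, 10.25 and 10.19 at 2 h and at 9.64, 10.15 and 10.11 at 1 h. Those groups overlapped and 1 h replicate 1 was the low one. The brightest members of the other lists had log2 differences of -0.10 to 0.02, among them Lpl (-0.04), Pcna (-0.01) and Gapdh (0.00). In all, 17 of 494 tested list genes rose and 15 fell, where 0.878% of all genes tested rose and 0.242% fell. The lists were drawn up with earlier results of these data known.

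**Figure D3:**
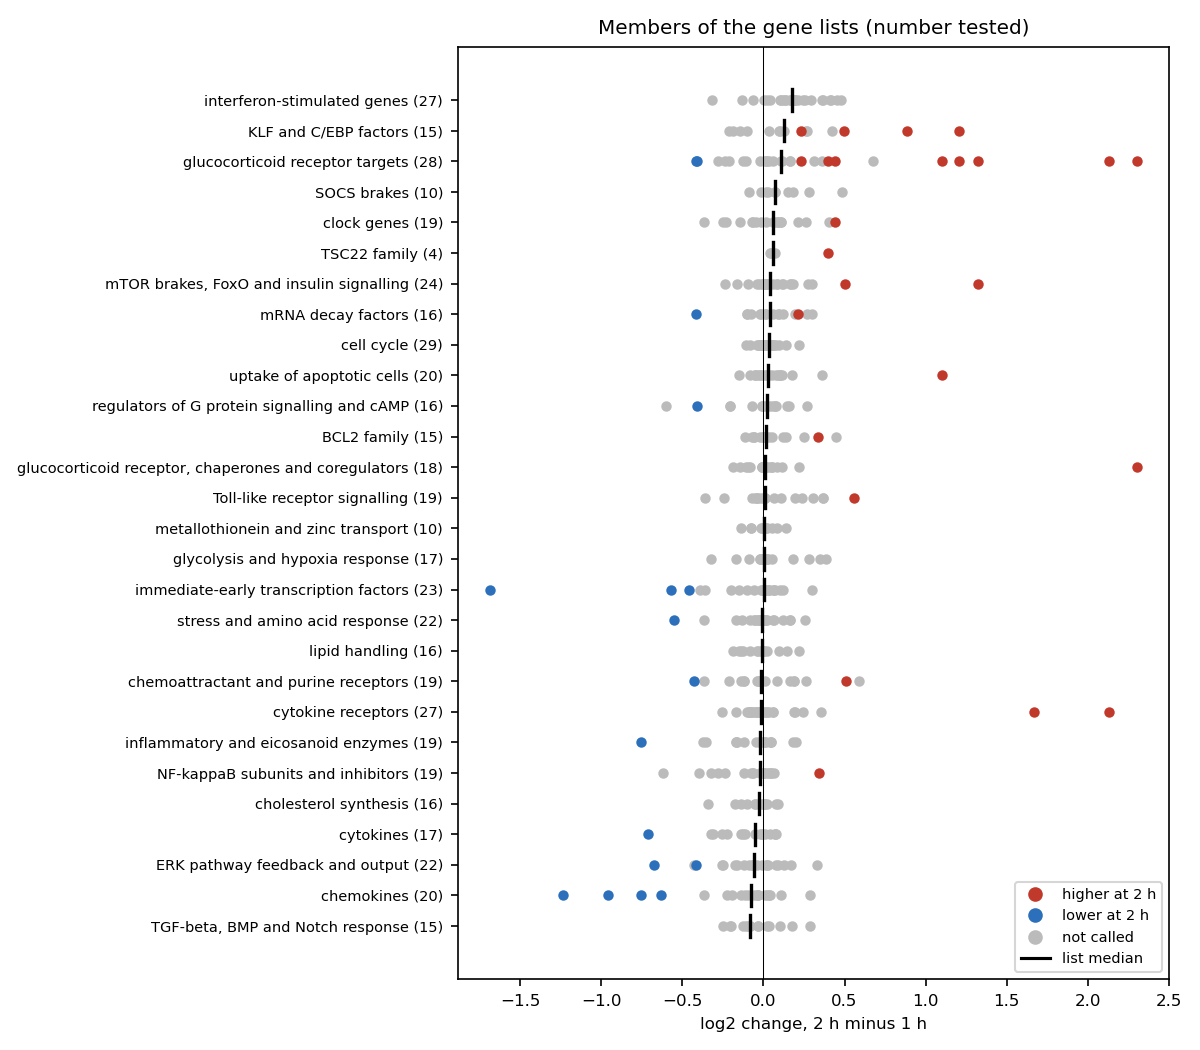
Log2 change from 1 h to 2 h (horizontal axis) of each tested member of the 28 gene lists (vertical axis, number tested in brackets), with members higher at 2 h in red, lower in blue and not called in grey, and a bar at each list's median. List medians lie between -0.08 and 0.17, while single members reach 2.30 (Fkbp5) and -1.69 (Egr2).

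The second hour was then set against the first hour of treatment, which ran from baseline to 1 h, by testing the difference of the 2 changes in the same model. The difference passed for 29 genes (0.22%), of which 16 (0.121%) had a more positive change in the second hour and 13 (0.0984%) a more negative one. With the replicate block it passed for 49 genes, 26 more positive and 23 more negative, and without 1 h replicate 2 or without 1 h replicate 3 for 18. Since the 1 h arrays enter both changes, an error in them moves the difference by more than it moves either change.

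Among genes with a more positive second hour, several had hardly left baseline at 1 h. Fkbp5 averaged 7.62 ± 0.08 at baseline, 7.76 ± 0.18 at 1 h and 10.06 ± 0.06 at 2 h, and then 11.28 at 4 h, 11.42 at 10 h and 11.16 at 24 h, a difference between the hours of 2.16 ± 0.12 SE (adjusted p = 2.13e-11). Mertk averaged 7.47 ± 0.25 at baseline, 7.50 ± 0.10 at 1 h and 8.60 ± 0.11 at 2 h, and went on to 9.36 at 4 h and 9.60 at 10 h (1.08 ± 0.16 SE, adjusted p = 0.000461). Both genes moved within their spread in the first hour and far beyond it in the second. Ssh2 averaged 8.15 ± 0.20 at baseline, 8.28 ± 0.03 at 1 h and 9.52 ± 0.02 at 2 h (1.11 ± 0.15 SE, adjusted p = 0.000211). Gab3 averaged 7.50 ± 0.07 at baseline, 7.54 ± 0.15 at 1 h and 8.63 ± 0.05 at 2 h (1.04 ± 0.16 SE, adjusted p = 0.00116). At 4 h they averaged 9.66 and 8.66, close to their 2 h means. Lifr averaged 4.21 ± 0.18 at baseline, 3.98 ± 0.14 at 1 h and 6.11 ± 0.28 at 2 h (2.36 ± 0.29 SE, adjusted p = 4.03e-05), a call lost with the mean of its probe sets (0.072).

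Ier3, an immediate-early survival gene, reached a positive difference by another course. It averaged 8.47 ± 0.09 at baseline, 7.53 ± 0.13 at 1 h and 7.52 ± 0.10 at 2 h, so it was lower at 1 h than at baseline on every array and level in the second hour (0.94 ± 0.18 SE, adjusted p = 0.016). Its step from 1 h to 2 h was -0.01 and did not pass. The difference lost its call without 1 h replicate 1 (0.185) or 1 h replicate 3 (0.2).

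The 6 genes with the most negative difference already stood well above baseline at 1 h. Dusp1 averaged 8.83 ± 0.17 at baseline, 12.20 ± 0.04 at 1 h and 11.78 ± 0.06 at 2 h, which gave the largest difference between the hours, -3.78 ± 0.16 SE (adjusted p = 9.7e-14). Per1 averaged 6.25 ± 0.17 at baseline, 8.35 ± 0.13 at 1 h and 8.79 ± 0.08 at 2 h (-1.66 ± 0.17 SE, adjusted p = 2.1e-06). Tsc22d3 averaged 8.78 ± 0.07 at baseline, 10.58 ± 0.09 at 1 h and 10.98 ± 0.07 at 2 h (-1.41 ± 0.10 SE, adjusted p = 3.88e-09). All 3 are receptor targets, and 2 of them, Per1 and Tsc22d3, were still rising in the second hour while Dusp1 fell. Fos, an AP-1 subunit, averaged 8.43 ± 0.10 at baseline, 9.72 ± 0.01 at 1 h and 9.62 ± 0.09 at 2 h (-1.39 ± 0.17 SE, adjusted p = 4.03e-05). Nfkbia, which encodes the NF-kappaB inhibitor I-kappaB alpha, averaged 10.10 ± 0.09 at baseline, 10.92 ± 0.07 at 1 h and 10.68 ± 0.06 at 2 h (-1.05 ± 0.11 SE, adjusted p = 2.5e-06). Neither gene's second-hour step passed on its own, with adjusted p of 0.973 for Fos and 0.072 for Nfkbia. The step of Nfkbia passed with the replicate block (0.000549) and in the fit of the compared groups alone. It also passed without baseline replicate 2 and without 10 h replicate 1. Id1, an inhibitor of basic helix-loop-helix factors, averaged 4.97 ± 0.26 at baseline, 6.26 ± 0.17 at 1 h and 6.29 ± 0.11 at 2 h, and its difference (-1.27 ± 0.27 SE, adjusted p = 0.0431) was lost under 18 of 29 settings, 13 of them the omission of a single array.

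**Figure D4:**
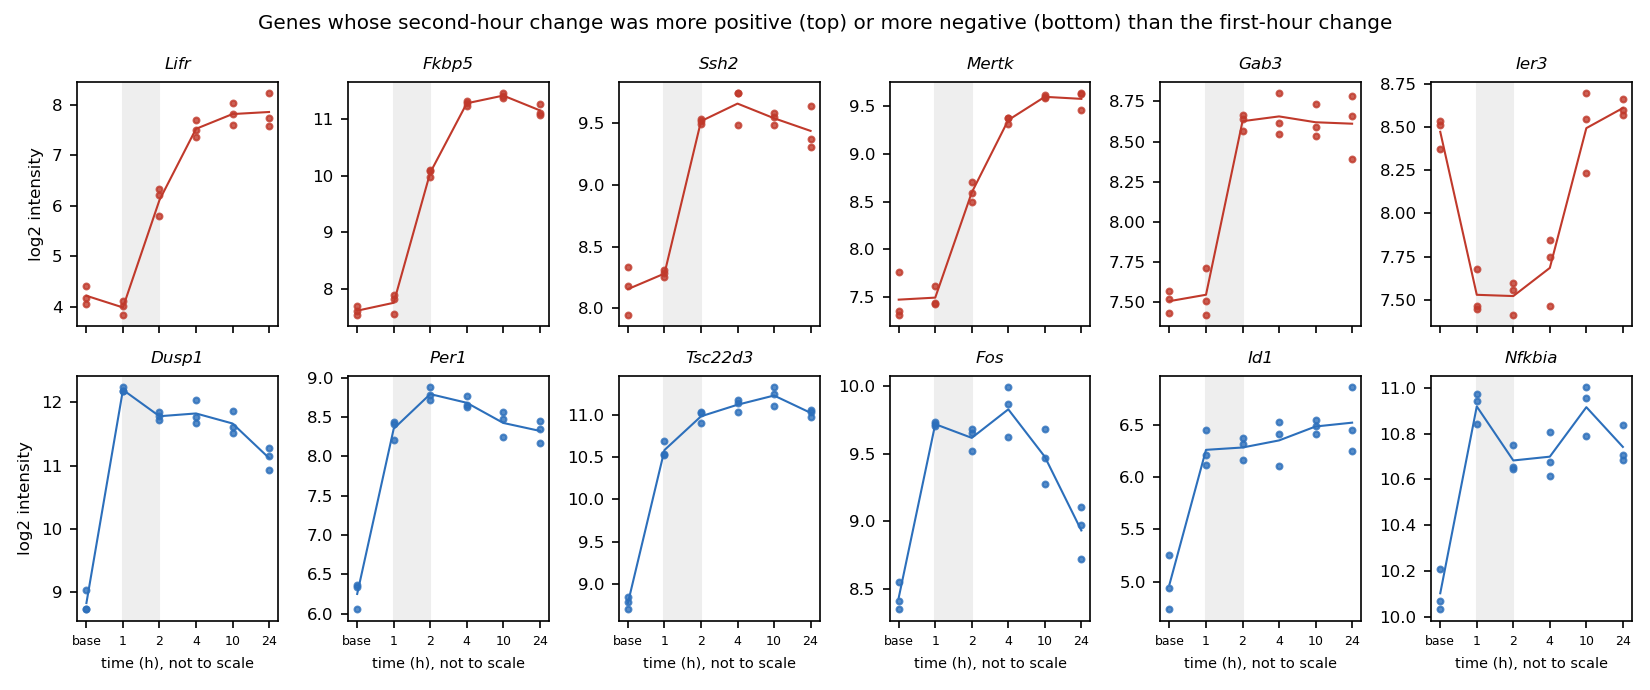
Log2 intensity (vertical axes, each with its own range) at baseline and after 1, 2, 4, 10 and 24 h of dexamethasone (horizontal axis, not to scale) for the 6 genes with the most positive (red, top) and the 6 with the most negative (blue, bottom) difference between the second and the first hour; points are arrays, lines join the means and the second hour is shaded. Fkbp5, Lifr, Ssh2, Mertk and Gab3 climb inside the shaded hour, whereas Dusp1 climbs before it, to 12.20 at 1 h.

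Not every large second-hour rise was of the late kind. Ddit4 averaged 4.81 ± 0.52 at baseline, 7.10 ± 0.20 at 1 h and 8.43 ± 0.09 at 2 h, and Klf9 averaged 8.45 ± 0.16 at baseline, 9.22 ± 0.02 at 1 h and 10.42 ± 0.09 at 2 h. For neither did the difference between the hours pass (adjusted p = 0.76 and 0.25). Among the falls, Ccl2 averaged 11.29 ± 0.06 at baseline, 11.23 ± 0.06 at 1 h and 10.27 ± 0.05 at 2 h, and its difference of -0.90 ± 0.17 SE passed (adjusted p = 0.013). It averaged 10.91 ± 0.16 at 24 h. Egr2 averaged 6.83 ± 0.29 at baseline, 6.16 ± 0.21 at 1 h, 4.47 ± 0.17 at 2 h and 4.49 ± 0.27 at 24 h, and the difference between its hours, -1.02 ± 0.33 SE, did not pass (adjusted p = 0.705). Of the 29 genes with a difference, 22 were also called in the step from 1 h to 2 h. That step is itself a term of the difference, so the overlap is partly built in. The 16 positive ones held 15 genes that rose in the step, and the 13 negative ones held 5 that fell, 2 that rose and 6 that were not called.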

How the data were processed

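Biotin-labelled RNA of each sample was read on 1 Affymetrix array. The authors deposited intensity on a linear scale. It comes from RMA and the affy package by the submitters' processing notes, and versions are not given in the sources used here. RMA makes the distributions of all probe sets alike between arrays, which can mask a shift common to most genes. The array medians over the genes tested still ran from 6.46 to 6.52 at 2 h and from 6.37 to 6.48 at 1 h. Here log2 of the intensity was taken. All 18 columns were mapped by title.

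Of 45141 probe sets, 28898 had 1 gene symbol in the platform annotation and 15588 had none, and 551 had several and were left unnamed. A run of 211 probe sets with evenly stepped values in baseline replicate 1 was left out, which lost 77 genes. The probe set with the highest mean stood for its gene, and 13210 genes with at least 3 arrays at or above the array's 40th percentile were tested. Limma 3.58.1 in R 4.3.3 fitted 1 mean per group over all 18 arrays with an intensity trend, with two-sided tests and Benjamini-Hochberg adjustment over the genes tested. Limma gave every adjusted p printed. Array number limits the precision. On simulated data for the step from 1 h to 2 h over 13210 genes, with 50 changed genes per size, 30% of changes of 0.3, 72% of 0.5, 98% of 1 and 100% of 2 were recovered.

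The replicate number may pair the samples. Deviations from the group means of same-numbered arrays at 2 h and 1 h correlated at 0.20, 0.27 and 0.27, and those of other pairs at -0.17 to -0.08. Deviations within a group cancel out, so the negative values follow from the positive ones and are no separate evidence. A fit with the number as a block is given where it changes a call or moves a count by over 1.5 times. The pairing comes from this check, not from the labels.

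Genes named are the 15 largest called rises and 15 largest called falls without overlap between the times, up to 4 called members of each of the 28 lists (or the brightest where none was called), 5 treatment check genes and the 6 most positive and 6 most negative differences between the hours. List members given with values that did not pass, and the named markers, fall outside that rule. Members and lists were chosen with earlier results of these data known. Alternatives were the fit of the compared groups alone, the block, other probe set rules, filters, eBayes settings and scalings, and the omission of each array. Promoter windows are RefSeq's (GRCm38.p6), matched by symbol.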

Additional observations from a re-analysis of the deposited data

Results flagged for a closer look

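For 12 named genes the change in the second hour and the change in the first hour differed by a test of that difference itself in limma, with an adjusted p under 0.05. The difference, second hour minus first hour on the log2 scale, was 2.36 for Lifr, 2.16 for Fkbp5, 1.11 for Ssh2, 1.08 for Mertk, 1.04 for Gab3 and 0.94 for Ier3. It was -3.78 for Dusp1, -1.66 for Per1, -1.41 for Tsc22d3, -1.39 for Fos, -1.27 for Id1 and -1.05 for Nfkbia. They are the 6 largest differences in each direction among 29 genes that passed.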

How the results depend on the processing

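Counts of calls moved by over 1.5 times under some settings. With the replicate block, the pairing by number, there were 219 step calls, 165 higher and 54 lower, which held 147 of the 148 genes. The block gave 49 differences between the hours (26 positive, 23 negative). The step of Nfkbia was called as well, and no call of the other named genes was lost. Median centring gave 68 higher genes. A minimum change of 1 left 17 genes (15 higher, 2 lower) in the step and 11 differences between the hours (5 positive, 6 negative). The probe set of largest variance gave 19 differences (10 positive), and 10 positive ones passed without the intensity trend. Testing each probe set alone, chosen after seeing the data, gave 225 calls, 184 of them higher.

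Leaving out 1 array at a time gave 90 to 164 step calls, 68 to 127 higher and 22 to 37 lower, and 18 to 31 differences between the hours, 9 to 17 positive and 8 to 15 negative. The Gapdh 3' minus 5' difference ranged from -0.0413 to 0.0277 (0.0277 without 2 h replicate 1) and was 0.0157 against the middle probe set, and that of Actb ranged from 0.0137 to 0.0428.

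Signs turned only in genes not called in the step. With the probe set of largest variance the changes were -0.142 for Msmo1, 0.254 for Id2 and -0.401 for Mt1. With the mean of all probe sets they were -0.0697 for Msmo1, 0.0295 for Id2 and -0.192 for Mt1, and the difference between the hours of Nr3c1 was 0.0030. After median centring they were -0.0619 for Msmo1, -0.0473 for Mt1, -0.0623 for Gapdh and -0.0424 for Id1. Leaving out 1 array at a time gave -0.114 to 0.113 for Msmo1, -0.0311 to 0.0774 for Mt1, -0.052 to 0.0175 for Pcna, -0.0359 to 0.0318 for Gapdh, -0.0485 to 0.0664 for Ier3, -0.0487 to 0.12 for Id1 and -0.126 to 0.12 for the difference of Nr3c1. The cause was not tested.

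Of all single-gene comparisons with the main setting, 1958 kept direction and side of the threshold, 168 lost the call (30 of them through the minimum change of 1), 4 gained one and 30 turned. Limits are 3 arrays per time, no untreated arrays at 1 h or 2 h, a normalisation that can mask shared shifts, and signal near background for Lifr at 1 h.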

Other observations

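Some called genes outside the naming rule were picked here after their values were seen, for what they do. They stand for no gene class. Jdp2, which dimerises with AP-1 subunits, rose by 0.85, Irf2 by 0.73 and Maf by 0.33, while Ets2 and Zeb2 had changes of -0.45 and -0.41. Jag1, a Notch ligand, rose by 0.84, Acvr2a, an activin receptor, by 0.83, and the kinases Wee1 and Sik1 by 0.74 each. Gpr84, a receptor for medium-chain fatty acids, had a change of -0.43.

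All probe sets were also tested 1 by 1, which was decided once the data had been seen. Of 31483 probe sets 225 were called. Among the 9963 without a single gene symbol 44 were called (0.442%), 38 higher and 6 lower at 2 h, with changes from -0.51 to 2.03.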
